A study of Nothobranchius furzeri with 10 samples.

Results

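The 200 genes with the most counts in the brain of the turquoise killifish, Nothobranchius furzeri, an annual fish known for its short life, were described across exercised and unexercised fish. They were chosen by the highest mean CPM (counts per 1000000 counted reads of a library) over all 10 libraries, and are 200 of the 26739 genes in the table and of the 22897 with at least 1 read. All 200 passed the filter on low counts, which kept 19325 genes for testing. The level therefore chose these genes and is given as a description. The rule used neither the difference between the groups nor the spread among libraries. A few high libraries can still carry a variable gene into the list.

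RNA came from the brains of male fish aged 10 weeks. The exercise group (5 libraries) had swum in a swim tunnel and the control group (5 libraries) had received no perturbation. All fish, controls included, were of line 4010 and carried Tg(mylz2:egfp,tfam), a transgene that by its name places egfp and tfam under the promoter of mylz2, a myosin light chain gene of fast skeletal muscle. The labels give no swimming schedule, no tank or day, and do not tell whether libraries stem from separate fish, so p-values measure the spread among these libraries.

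In any tissue a small set of genes supplies a large part of the messenger RNA. In vertebrate brains such genes are known to include those for ribosomal proteins, the cytoskeleton, energy metabolism, calcium binding, synaptic vesicles and myelin. A read count grows with both the number of transcripts and their length, so a long gene can stand high in such a list with fewer transcripts than a short one. The files do not pair their gene identifiers with names, and 0 of the 26739 were found in RefSeq's gene table for this species. No role could therefore be given to any of the 200 genes, and the labelled brain could not be checked on marker genes. Genes are called here by their rank of mean CPM, rank 1 being the most abundant, except for an identifier where a gene changed.

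Libraries held between 21.2 M and 38.1 M gene counts (M, 1000000), with means of 29.5 ± 4.95 M in the exercise group and 24.8 ± 2.88 M in the control group (SD, n = 5 each). Exercise replicate 2 was the deepest. Exercise replicate 5 stood apart from the other exercise libraries in the levels of many of the 200 genes. Comparisons of the groups that rest on it are given with and without it.

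The 200 genes make up 0.748% of the genes in the table and took on average 20.7% of all counts. Their share of counts was 20.7%, 20.2%, 20.1%, 20.1% and 22.0% in exercise replicates 1 to 5, against 20.8%, 20.9%, 21.1%, 20.2% and 20.8% in control replicates 1 to 5. Exercise replicate 5 was the highest of the 10 libraries, the other exercise libraries lay at or below the middle of the controls, and the groups overlapped. The mean share was 20.6% ± 0.800 in exercise and 20.7% ± 0.330 in the controls (SD, n = 5 each), a difference of -0.12 percentage points that was smaller than either SD. Without exercise replicate 5 the exercise mean was 20.3% ± 0.271 (SD, n = 4) and the difference -0.46 points.

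The counts were spread over many genes. The most abundant gene took 0.643% ± 0.0521 of counts in exercise and 0.648% ± 0.0204 in the controls (SD, n = 5 each), and the 10 most abundant genes together 3.66% ± 0.145 and 3.59% ± 0.122. The first 50 genes took 9.72% on average and the first 100 took 14.3%. It took 1372 genes to reach 50% of the mean CPM and 7664 to reach 90%.

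**Figure D1:**
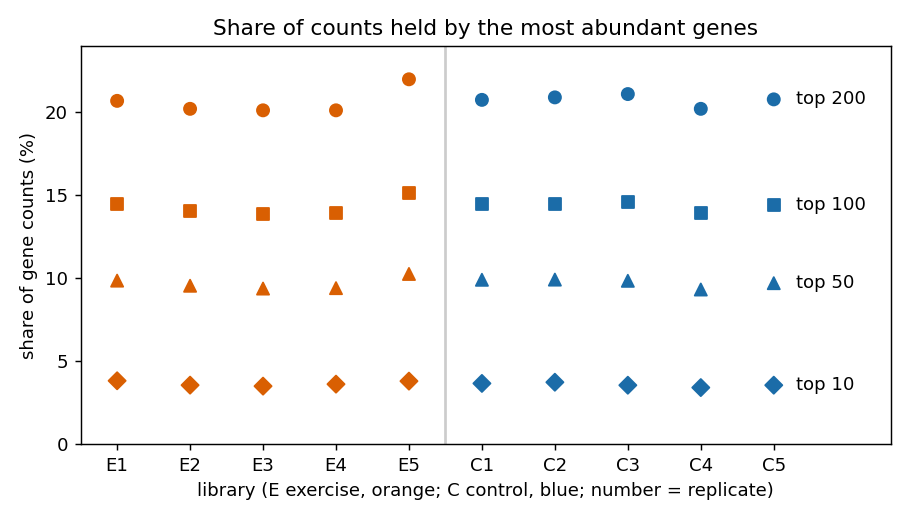
Share of all gene counts (%, vertical axis) held by the 10, 50, 100 and 200 most abundant genes in each library, exercise libraries (orange) left of control libraries (blue). The top 200 held between 20.1% and 22.0%, and the highest value was that of exercise replicate 5.

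Within the 200 the level declined steeply with rank. The mean was 6453 CPM at rank 1, 2397 CPM at rank 10, 1141 CPM at rank 50, 789 CPM at rank 100 and 525 CPM at rank 200. The boundary was not a gap. Rank 200 averaged 524.7 CPM with a range over libraries of 484 to 570 CPM, and the first gene left out averaged 524.4 CPM with a range of 426 to 579 CPM.

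The order among the first 10 genes was firm in places only. Rank 1 lay above rank 2 in all 10 libraries, and rank 3 above rank 4 in all 10. Rank 2 lay above rank 3 in 6 of 10 libraries, 2 of the exercise and 4 of the control libraries. Rank 5 lay above rank 6 in 6 libraries (2 exercise and 4 control), and rank 8 above rank 9 in 6 (2 exercise and 4 control). Rank 7 lay above rank 8 in 5 libraries, 4 exercise and 1 control. Whether these neighbours differ in level was not tested.

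Levels by library, after scaling with TMM (the trimmed mean of M-values), show what lies behind that order. Rank 1 stood at 6563, 6246, 5897, 5973 and 7383 CPM in exercise replicates 1 to 5, against 6691, 6351, 6701, 6365 and 6414 CPM in control replicates 1 to 5. The control libraries lay within the range of the exercise libraries, whose highest value was in replicate 5. Rank 3 stood at 4654, 4881, 4676, 4860 and 4590 CPM in exercise replicates 1 to 5, against 3809, 4430, 3616, 4728 and 3854 CPM in control replicates 1 to 5. Exercise libraries lay close together there, while control replicates 2 and 4 stood near them and the other 3 controls lower. Rank 6 stood at 3925, 3088, 3052, 3336 and 3546 CPM in exercise replicates 1 to 5, against 3087, 3798, 3190, 1468 and 3024 CPM in control replicates 1 to 5. Its control replicate 4 was under 50% of every other library.

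Both short and long genes were among the 200. Gene lengths, recovered from the table of RPKM (reads per kilobase and 1000000 reads), ran from 321 to 26901 bp with a median of 2642 bp, near the 2685 bp of all tested genes. Both ends were more frequent than among all tested genes. Of the 200, 52 genes (26.0%) were under 1000 bp, against 17.1% of tested genes, and 15 (7.50%) were over 10000 bp, against 2.85%.

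Per length the order differed. When mean CPM was divided by length in kilobases, 115 of the 200 were among the 200 highest genes and 85 were not. The 200 highest per kilobase had a median length of 744 bp. Rank 1 (2314 bp) had 2789 CPM per kilobase and was the 6th of all genes, whereas rank 2 (9715 bp) had 463 CPM per kilobase and was the 120th. The highest of the 200 per kilobase was rank 51 (372 bp), at 3059 CPM per kilobase. The lowest was rank 196 (23508 bp), at 22.5 CPM per kilobase, which placed it 3699th of all genes.

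Membership depended little on the library. Each library's own 200 most abundant genes included between 186 and 191 of the 200. In all 10 libraries 163 genes were among the 200 highest, and 250 genes were so in at least 1 library. The 200 highest by the exercise mean and the 200 highest by the control mean shared 191 genes.

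Spread between libraries of 1 group was measured as SD over mean of TMM-scaled CPM, averaged over both groups. Its median over the 200 genes was 6.84%. It was below 5% in 40 genes, between 5% and 10% in 132, between 10% and 20% in 22 and at 20% or more in 6. Counting error contributed little. The median count of these genes was 21529 per library, which alone would give a spread of 0.681%, and 199 of the 200 had at least 5000 counts in every library. The spread was at the median 10.7 times the counting error.

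Averaged over both groups, the spread was no smaller at higher abundance at this end of the table. The median was 6.63% in ranks 1 to 50, 7.13% in ranks 51 to 100, 6.80% in the last 100 and 6.59% in the 1800 genes that follow in rank (to rank 2000). It was higher further down, at 8.62% between ranks 5000 and 10000. In control libraries alone the median was smaller at the top, at 5.00% in ranks 1 to 50 and 6.57% in those 1800 genes. In exercise libraries it was 8.14% and 6.53%, values that include exercise replicate 5. Between the highest and the lowest of the 10 libraries the median ratio was 1.25 over the 200 genes. In 19 genes it was 1.5 or more, and in 6 it was 2 or more.

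**Figure D2:**
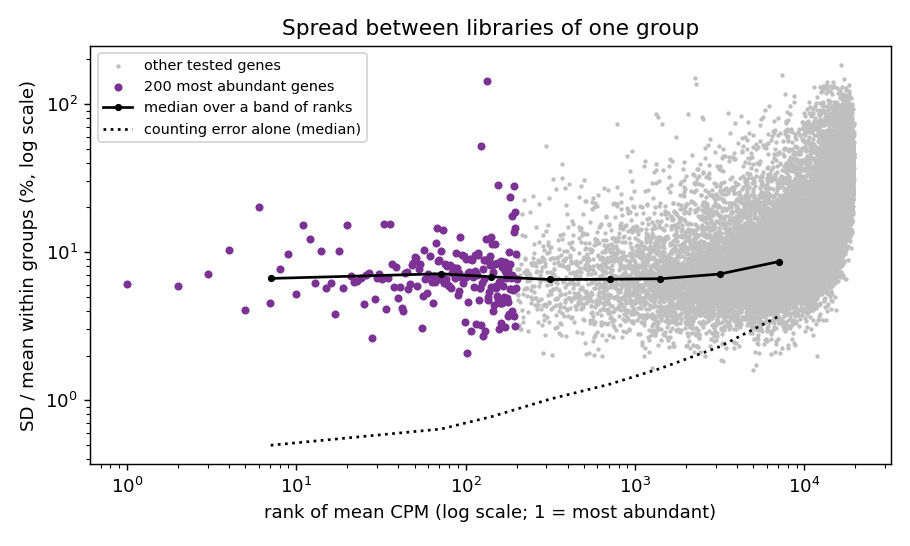
SD over mean within groups (%, log scale) against rank of mean CPM (log scale) for all tested genes (grey) and the 200 most abundant (purple), with the median per band of ranks (solid line) and counting error alone (dotted). The band medians joined by the solid line lie between 6.52% and 7.13% for bands up to rank 5000, far above the dotted line at the left.

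The steadiest gene was rank 102 (4735 bp), with a spread of 2.08%. It stood at 784, 788, 787, 764 and 814 CPM in exercise replicates 1 to 5, against 793, 762, 767, 790 and 790 CPM in control replicates 1 to 5. All 10 values lay within a narrow band and the groups overlapped. Next came rank 28 (6803 bp) with a spread of 2.62% and rank 126 (9698 bp) with 2.73%. Rank 28 averaged 1468 ± 28.7 CPM in exercise and 1465 ± 48.3 CPM in the controls (SD, n = 5 each).

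The most variable gene was rank 133 (615 bp), which was among the most abundant genes of some libraries and at 14.1 CPM or less in the others. It had 871, 7.14, 1059, 1607 and 1760 CPM in exercise replicates 1 to 5, against 0.328, 1389, 14.1, 1.38 and 0.814 CPM in control replicates 1 to 5. It was high in 4 of 5 exercise libraries and in 1 of 5 control libraries, so high and low libraries occurred in both groups. The low libraries differed too, from 0.328 CPM in control replicate 1 to 14.1 CPM in control replicate 3. Its control mean of 281 CPM lay below the 525 CPM of rank 200, so its membership rested on the libraries where it was high. In raw counts it had 46580 in exercise replicate 4 and 274 in exercise replicate 2, and 29275 in control replicate 2 and 9 in control replicate 1. Its place in the library's own order ran from 21st in exercise replicate 4 to 19338th in control replicate 1. The edgeR quasi-likelihood test gave an adjusted p of 0.747 for exercise against control.

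Rank 124 (1813 bp) had the next largest spread. It stood at 465, 366, 683, 519 and 1690 CPM in exercise replicates 1 to 5, against 598, 909, 634, 369 and 757 CPM in control replicates 1 to 5. Exercise replicate 5 lay far above every other library. Rank 155 (7595 bp) followed, at 262, 592, 538, 624 and 815 CPM in exercise replicates 1 to 5, against 440, 704, 835, 683 and 714 CPM in control replicates 1 to 5. Exercise replicate 1 was the lowest library of either group. The other 3 genes with a spread of 20% or more were rank 192 (27.7%), rank 182 (23.7%) and rank 6 (20.2%), which were picked out after their values were seen.

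The spread was unequal between the groups. Its median over the 200 genes was 8.16% in exercise and 5.70% in control libraries. Over the next 1800 genes it was 6.53% in exercise and 6.57% in control libraries. With exercise replicate 5 left out, the exercise median was 3.94% over the 200 genes and 4.98% over the next 1800, both below control. That library was picked out for standing apart in many of the 200 genes, so its omission narrows their spread. The medians without it are a description only.

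Exercise replicate 5 was the highest of all 10 libraries in 87 of the 200 genes (43.5%) and the lowest in 8. Over the next 1800 genes it was the highest in 15.9% and the lowest in 14.9%. Exercise replicate 4 was the library most often lowest, in 57 of the 200 (28.5%), and control replicate 3 was the highest in 30 (15%). Over the next 1800 genes these shares were 18.6% for exercise replicate 4 and 17.4% for control replicate 3. Relative to the mean of the other 4 exercise libraries, the level in exercise replicate 5 was at the median 1.12 times as high, and in 62 genes it was at least 1.2 times as high. In 59 of the 200 genes it stood alone above the other exercise libraries beyond Dixon's 95% limit for 5 values (gap over range of 0.71). Over both groups the limit was passed in 74 of 400 sets of 5 values, 14 of them through libraries other than exercise replicate 5. These sets share the same 10 libraries and the genes vary together, so the 74 are not separate events and cannot be set against chance.

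This deviation varied with gene length. Among the 52 genes under 1000 bp exercise replicate 5 was the highest library in 36 (69.2%), and its median ratio to the other exercise libraries was 1.22. Among the 77 genes from 1000 bp to under 4000 bp it was the highest in 39 (50.6%). Among the 71 genes of 4000 bp or more it was the highest in 12 (16.9%), with a median ratio of 1.03. In the next 1800 genes the shares were 24.3%, 27.9% and 8.70% for the same length classes. The median log2 deviation of exercise replicate 5 from each gene's mean over 10 libraries was 0.21 for the short, 0.15 for the middle and -0.0017 for the long genes of the 200. Control replicate 3 deviated in the same order, at 0.11, 0.076 and 0.0023. The part of gene length in these deviations was not tested.

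**Figure D3:**
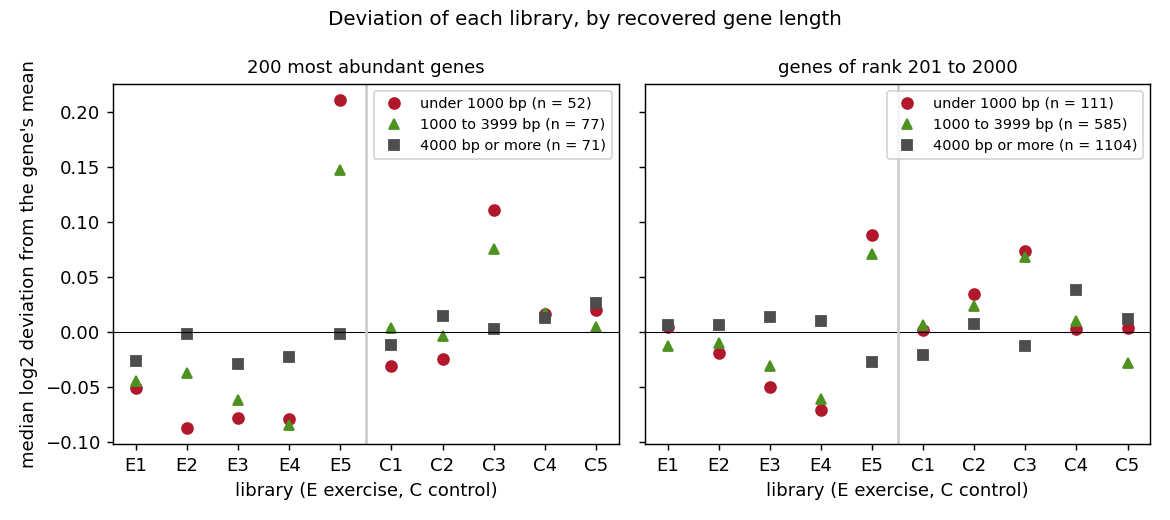
Median log2 deviation of each library from a gene's mean over all 10 libraries (vertical axis), for 3 classes of recovered gene length, among the 200 most abundant genes (left) and the 1800 genes next in rank (right). Exercise replicate 5 reached 0.21 for short members and 0.088 for short genes next in rank.

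The same library led the main axis of variation. With each of the 200 genes scaled to unit variance, the first principal component held 44.5% of the variance, and 156 genes loaded on it in the direction of exercise replicate 5. The scores were -6.84, -7.59, -7.88, -10.9 and 18.6 in exercise replicates 1 to 5, against -0.271, -1.57, 12.4, 2.98 and 1.06 in control replicates 1 to 5. Exercise replicate 5 and control replicate 3 lay at one end, the other 4 exercise libraries lay at the other, and the remaining controls lay between them. Without exercise replicate 5 the first component held 42.1% of the variance, with scores of -7.54, -7.09, -6.88 and -11.0 in exercise replicates 1 to 4, against 2.49, -0.346, 17.4, 7.91 and 5.06 in control replicates 1 to 5. These 4 exercise libraries lay below every control with and without exercise replicate 5. As that library was picked out because it stood apart from them, this order is a description and no test of exercise. The second component, with all libraries, held 15.0% of the variance. It averaged 3.71 ± 3.65 in exercise and -3.71 ± 4.45 in the controls (SD, n = 5 each). Opposite means of equal size follow from centring with groups of equal number. The groups overlapped, as control replicate 2 (2.75) lay above exercise replicates 2 (0.589) and 3 (0.040). Exercise replicate 5 was the highest, at 8.37, and scores without it are not given here.

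The comparison of exercised with unexercised brains asked which genes differed with exercise. Of the 200 genes, 1 fell and 0 rose past a threshold of 0.05 by edgeR (quasi-likelihood test), with adjustment by Benjamini-Hochberg over all 19325 tested genes. This is 0.5% of the 200, against 0.171% of all tested genes (0.109% lower and 0.0621% higher). At an unadjusted p below 0.05 in the same test there were 16 lower and 5 higher genes, 10.5% of the 200 against 11.7% of all tested genes. In the 1800 genes next in rank, whose SEs were like those of the 200 (median 0.061 against 0.063 on the log2 scale), it was 16.3%. DESeq2 placed 5 of the 200 past the adjusted threshold (1 higher and 4 lower), 2.50% against 2.04% of all tested genes. Of the 1800 genes next in rank it placed 75 past it, a larger share than of the 200.

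The gene that fell was Nfu_g_1_001078 (rank 116, 7182 bp). It stood at 628, 592, 575, 620 and 645 CPM in exercise replicates 1 to 5, against 814, 855, 849, 833 and 837 CPM in control replicates 1 to 5. The highest exercise library was well below the lowest control library. In bulk tissue, fewer cells of a type and less RNA per cell cannot be told apart. It was 1.37-fold lower in exercise (95% interval 1.28 to 1.46). On the log2 scale this is -0.45 ± 0.04 (SE), and edgeR's adjusted p was 0.000788. It remained past the threshold in all 19 alternative fits, with log2 fold changes between -0.48 and -0.43 and adjusted p-values of at most 0.00675.

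For the other genes the differences were small. The absolute fold was below 1.1 in 170 of the 200 genes (85.0%), between 1.1 and 1.2 in 25 and above 1.2 in 5. These were ranks 33, 74, 116 and 198, all lower in exercise, and the variable rank 133. Among the next 1800 genes 78.7% were below 1.1-fold, and among all tested genes, which have larger SEs, 61.5%. The median absolute fold was 1.04 over the 200 and 1.07 over all tested genes. With a median SE of 0.063 on the log2 scale, a 95% interval at the median spanned about 1.11-fold to either side, narrower for steady genes and wider for variable ones. Without exercise replicate 5 the fold was below 1.1 in 156 genes, between 1.1 and 1.2 in 32 and above 1.2 in 12.

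**Figure D4:**
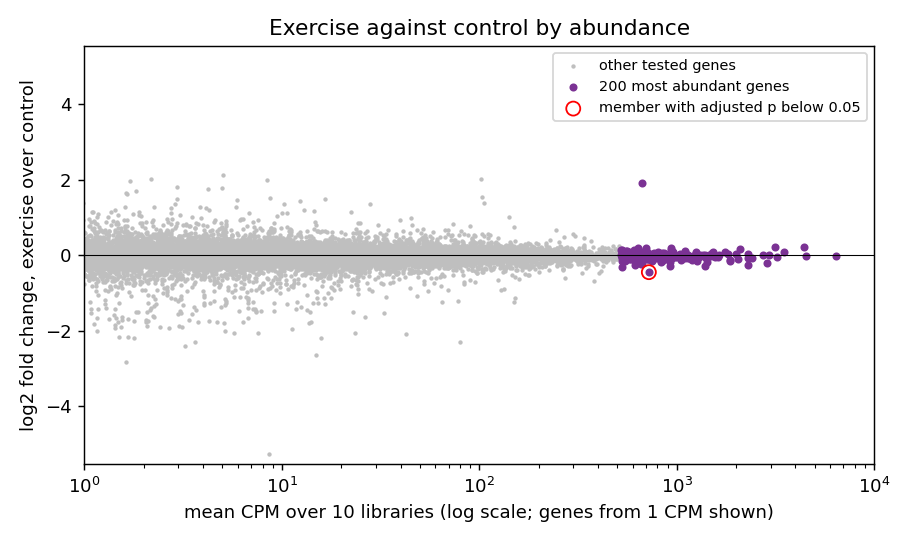
Log2 fold change of exercise over control (vertical axis) against mean CPM (log scale) for tested genes of at least 1 CPM (grey) and the 200 most abundant (purple). The ring marks the member with an adjusted p below 0.05, at -0.45, and the isolated purple point at 1.92 is rank 133, high in 4 exercise and 1 control libraries.

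In direction, 125 of the 200 genes (62.5%) were lower and 75 higher in exercise. Of all tested genes 49.4% were lower, and of the next 1800 genes 54.9%. By length the 2 sets were closer. Under 1000 bp, 36 of 52 members and 74 of 111 genes next in rank were lower. From 1000 bp to under 4000 bp it was 51 of 77 and 364 of 585. At 4000 bp or more it was 38 of 71 and 550 of 1104. The part of gene length in the direction was not tested. Over the 200 genes the median log2 fold change was -0.029, against 0.0020 over all tested genes and -0.011 over the next 1800. With counts scaled by column sums alone 115 were lower and 85 higher. Voom with sample weights, on all libraries, gave 148 lower and 52 higher, with a median of -0.048. The edgeR shift of -0.029 was smaller than the SD of the libraries' own medians within groups (0.061 on the log2 scale). That SD rests on exercise replicate 5. Without that library the shift was -0.069 and larger than the SD, then 0.027, with 148 lower and 52 higher genes. Between 138 and 148 genes were then lower under the 4 scalings tried. Control replicate 3 deviated in the same direction as exercise replicate 5. With control replicate 3 alone left out, the shift was -0.014, with 122 lower and 78 higher genes. No test was made of the shift, as a value over chosen genes. Exercise replicate 5 was picked out for standing mostly high in these genes, so the shift without it is a description only.

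Exercise and control libraries did not overlap in 6 of the 200 genes (3%), against 2.71% of all tested genes and 3.83% of the 1800 next in rank. In 5 of the 6 the exercise libraries were lower. Besides rank 116 these were ranks 138, 148, 157, 163 and 198, picked out after their values were seen. Rank 138 (4365 bp) stood at 579, 599, 587, 625 and 660 CPM in exercise replicates 1 to 5, against 680, 683, 736, 771 and 726 CPM in control replicates 1 to 5. The groups were parted by a small gap, and the log2 fold change was -0.24 ± 0.05 (SE; edgeR adjusted p = 0.112, DESeq2 adjusted p = 0.00271).

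Rank 148 (666 bp) was the single one of the 6 with higher levels in exercise. It stood at 662, 694, 659, 680 and 708 CPM in exercise replicates 1 to 5, against 546, 605, 568, 623 and 620 CPM in control replicates 1 to 5. Its log2 fold change was 0.20 ± 0.05 (SE; edgeR adjusted p = 0.157, DESeq2 adjusted p = 0.00404).

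Rank 157 (5268 bp) averaged 584 ± 15.8 CPM in exercise and 648 ± 21.5 CPM in the controls (SD, n = 5 each; edgeR adjusted p = 0.183, DESeq2 adjusted p = 0.00249). Rank 163 (1662 bp) averaged 569 ± 21.9 CPM in exercise and 606 ± 16.8 CPM in the controls (SD, n = 5 each; edgeR adjusted p = 0.407). Rank 198 (7589 bp) averaged 473 ± 70.5 CPM in exercise and 585 ± 26.4 CPM in the controls (SD, n = 5 each; edgeR adjusted p = 0.266). Its exercise replicate 4 was the lowest library, at 354 CPM.

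**Figure D5:**
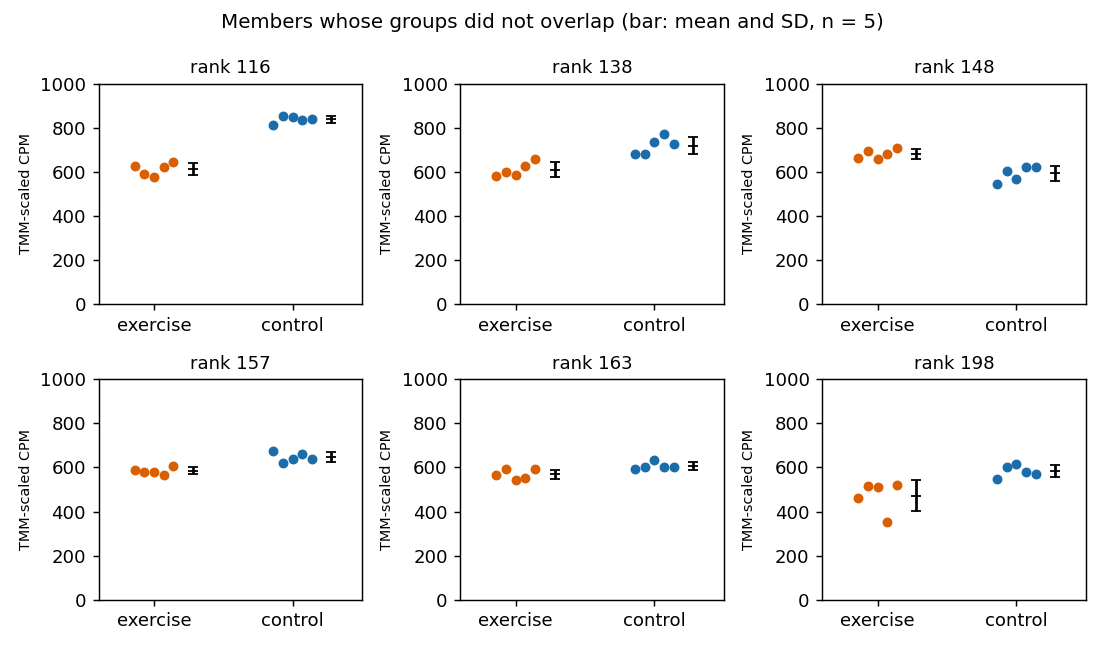
TMM-scaled CPM (vertical axis, from 0) in each exercise (orange) and control (blue) library for the 6 genes whose groups did not overlap, with mean and SD (n = 5). Rank 116 has the widest gap, from 645 CPM in the highest exercise library to 814 CPM in the lowest control library.

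Among the first 10 genes none passed the adjusted threshold. The 2 with an unadjusted p below 0.05 moved in opposite directions. Rank 3 (7728 bp) averaged 4732 ± 131 CPM in exercise and 4087 ± 469 CPM in the controls (SD, n = 5 each), with an edgeR adjusted p of 0.294. Rank 8 (1182 bp) stood at 2603, 2367, 2789, 2862 and 2759 CPM in exercise replicates 1 to 5, against 3122, 2747, 3029, 3183 and 3437 CPM in control replicates 1 to 5. Its groups overlapped at control replicate 2 and the edgeR adjusted p was 0.275.

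Without exercise replicate 5 the groups parted in more of the 200 genes. They did not overlap in 31 of them (15.5%), 30 lower and 1 higher in exercise, against 6.99% of all tested genes (4.03% lower and 2.96% higher) in the same 4 against 5 libraries. In the 1800 genes next in rank the share was 11.4% (7.28% lower and 4.17% higher). At an unadjusted p below 0.05 in edgeR's test 63 of the 200 (31.5%) were then lower and 6 higher. Over all tested genes 9.86% were lower and 6.98% higher, and over the next 1800 genes 16.2% and 8.56%. The share that was higher was thus smallest among the 200. Whether the 200 differ from the next 1800 in these shares was not tested. Past the adjusted threshold 2 were lower, ranks 116 and 138, out of a background of 0.467%. Exercise replicate 5 was picked out because it stood apart, mostly high, in these same genes. Its omission therefore lowers many exercise means and narrows their spread. The counts without it are a description and no test of exercise. Leaving out control replicate 2 gave 12 non-overlapping genes (background 4.36%), and leaving out control replicate 5 gave 10 (background 4.14%). Leaving out control replicate 3 gave 7 (background 3.72%). At an unadjusted p below 0.05 in edgeR's test 10 of the 200 (5%) were then lower and 5 higher. Over the next 1800 genes 8.22% were lower and 4.33% higher, both larger shares than among the 200. Over all tested genes it was 9.90% in either direction. What sets exercise replicate 5 apart was not tested.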

How the data were processed

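RNA-seq libraries of 10 killifish brain samples were compared in 2 groups of 5. Libraries were made with Illumina's TruSeq RNA kit, per the labels' protocols, which keeps no strand, so overlapping genes on opposite strands cannot be told apart. Per the submitters' processing notes, featureCounts 1.4.6-p4 was used together with STAR 2.4.1d and bcl2fastq 1.8.4. The genome build is not given in the sources used here. The authors deposited raw counts per gene and a table of RPKM values. In the deposited RPKM table library totals had been applied in turn down the columns (99.99% of 218026 values above 0 were matched within 0.0011), so RPKM served only to recover whole-number gene lengths.

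Members were ranked by mean CPM from column sums, and levels by library are TMM-scaled (factors 0.981 to 1.01). The test on these counts was that of edgeR 4.0.16 under R 4.3.3 (filterByExpr, TMM, robust quasi-likelihood F test, no covariate), with Benjamini-Hochberg adjustment over 19325 genes. SEs are the log2 fold change over the square root of F, and intervals use 8 degrees of freedom. Deviations used log2(CPM + 0.1). Intervals do not cover PCR duplication. The procedure was also run on simulated data, whose outcome is not given here. The simulated fold changes were larger than those of most of the 200 genes, so that run cannot tell the power at such sizes. Alternatives were DESeq2 1.42.0, voom in limma 3.58.1 with sample weights, 4 further scalings, 2 further filters, non-robust fitting, other thresholds, 5 other choices of members and the omission of each library. Other scalings together with the omission of exercise replicate 5 were chosen after seeing the data. Members and lists were chosen with earlier results of these data known. By rule the genes described are ranks 1 to 10, 200 and 201, those past the threshold and the 3 of highest and lowest spread. Added after their values were seen were the genes whose groups do not overlap, DESeq2's calls, the other genes with a spread of 20% or more or a fold above 1.2, and the highest and lowest per length. No gene lists were scored, for want of names.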

Additional observations from a re-analysis of the deposited data

Results flagged for a closer look

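Single libraries stood beyond Dixon's 95% limit in 7 of 58 sets of 5 values, where chance gives about 1 in 20. The sets cover counts per library, shares of counts and 23 described genes in each group. Some of these genes, ranks 124 and 133 among them, were described because of their spread, which favours such libraries, so 7 cannot be set against chance. Exercise replicate 2 had 38.1 M counts (M, 1000000), the other exercise libraries 25.5 M to 28.8 M. Exercise replicate 5 was the high one at rank 5, with 3503 CPM beside 3063 to 3140 CPM in the other exercise libraries. It was also the high one at rank 7, with 3207 CPM beside 2858 to 2935 CPM, and at rank 124, with 1690 CPM beside 366 to 683 CPM. Control replicate 2 was the high one at rank 133, with 1389 CPM beside 0.328 to 14.1 CPM in the other controls, a gap over range of 0.990. It was the low one at rank 29, with 1377 CPM beside 1523 to 1573 CPM. Control replicate 3 was the high one at rank 163, with 635 CPM beside 592 to 603 CPM.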

How the results depend on the processing

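The number of the 200 genes past the threshold stayed at 0 higher and 1 lower in most fits. DESeq2 gave 1 higher and 4 lower, with 2.04% of all tested genes called. Voom with sample weights gave 2 lower, and its share over all tested genes is not given here. Leaving out single libraries gave 0 higher and 1 to 2 lower, the 2 being without exercise replicate 5, which also gave 2 lower with column sums, RLE or upper quartile factors. Without single libraries the non-overlapping genes numbered 6 to 31, or 3% to 15.5% of the 200 (6 with all libraries). Over all tested genes the share was then 3.53% to 6.99%, and both highest values were without exercise replicate 5. The median spread was 4.82% to 7.30% and the median log2 fold change -0.069 to -0.013. The difference in share was -0.46 to 0.0059 percentage points. The 200 genes highest per length held 0 lower calls and 3 non-overlapping genes (1.5%). The first 100 genes held 0 of each. The first 400 held 1 higher and 1 lower call (0.5%) and 17 non-overlapping genes (4.25%). Over all tested genes, with all libraries, 0.171% were called by edgeR and 2.71% did not overlap. The cause of these differences was not tested. The direction of 9 genes (ranks 3, 8, 116, 133, 138, 148, 157, 163 and 198) held in all 19 alternative fits. In ranks 116, 138, 148, 157, 163 and 198 the groups did not overlap, so leaving out 1 library could hardly reverse it. The fits also share the same libraries and are no independent test of direction. Rank 138 passed the threshold in 3 of the 19 fits, ranks 148 and 157 in DESeq2 alone, and ranks 3, 8, 133, 163 and 198 in none. Rank 29 passed in DESeq2 alone (adjusted p = 0.0369), at a log2 fold change of -0.17 in edgeR (adjusted p = 0.220). Rank 133 moved most, from 1.60 to 7.97 on the log2 scale, the highest without control replicate 2 (edgeR adjusted p = 0.118). No paired analysis was possible because the labels do not pair exercise with control libraries.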
